A study of Mus musculus with 10 samples.

Results

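Small leucine-rich proteoglycans are secreted proteins with a short run of leucine-rich repeats that bind collagen fibrils outside the cell. The 10 genes described here are Dcn, Bgn and Aspn of class I, Fmod, Lum, Kera, Prelp and Omd of class II, and Epyc and Ogn of class III. They were taken by name, through the Ensembl identifiers of a GRCm38 annotation, from the 16112 genes counted in 10 RNA-seq libraries of mouse muscle, and all 10 were found. The libraries were made from extensor digitorum longus (EDL, n = 3), psoas (n = 3) and soleus (n = 4). EDL and psoas are fast-twitch muscles and soleus is a slow-twitch muscle, and the study asked how far the muscles differ beyond that division. All mice were of the strain B6C3Fe a/a-Ttnmdm/J and wild type at the Ttn locus, and no library of mdm mutant muscle was analysed here. Replicates 1, 2 and 3 of EDL and of psoas came from mice of 42, 54 and 44 days. The 4 soleus libraries came from mice of 42, 44, 32 and 44 days. Whole muscles were extracted, so RNA of fibroblasts, tendon cells and other cells is read together with that of muscle fibers.

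Members of the family set the diameter and spacing of collagen fibrils, and several bind transforming growth factor beta or cell surface receptors. Class I proteins such as decorin and biglycan carry chondroitin or dermatan sulfate chains, and most of class II carry keratan sulfate. In muscle they are made mainly by fibroblasts of the connective tissue sheaths and by tendon cells, and fibromodulin and decorin are characteristic of tendon.

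Total counts per library ranged from 12737971 to 50431713. A count of 0 allows up to 3 counts, which is between 0.0595 and 0.236 CPM (reads scaled to a common library size), and such limits cover counting error only. Myh4 averaged 44038 CPM in EDL, 53922 in psoas and 1228 in soleus, and Myh7 averaged 51.5, 6.13 and 9824, as fast and slow muscles are defined. EDL 1, EDL 2, psoas 1 and psoas 2 were quality-trimmed before alignment and the other libraries were not, so trimming and muscle are partly mixed. The trimmed libraries came from male mice and EDL 3 and psoas 3 from female mice, so trimming and sex cannot be told apart within EDL and psoas. Soleus 1 was from a male, soleus 2 and soleus 4 were from females, and no sex is given for soleus 3. By the paper, a smaller part of the reads was mapped in EDL 1, psoas 1, psoas 2 and soleus 1 than in the other libraries. The libraries of a muscle carry different animal codes, and 3 of the 7 codes gave 2 muscles each, which the tests treat as independent. Levels below are TMM-normalized CPM, or FPKM (per kilobase of exon) where genes are compared with each other. A call below means that edgeR's quasi-likelihood test gave p under 0.01 after Benjamini-Hochberg adjustment over all genes, together with a difference of over 2-fold.

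The genes lie in 3 clusters and 1 single locus of GRCm38. Dcn (chr10:97479609-97518143), Lum (chr10:97565128-97572703), Kera (chr10:97606879-97613692) and Epyc (chr10:97644068-97682454) follow each other on the plus strand of chromosome 10. Aspn (chr13:49544443-49567565), Omd (chr13:49582462-49592822) and Ogn (chr13:49608046-49624501) follow each other on the plus strand of chromosome 13, with Ecm2, another leucine-rich repeat gene, next to Aspn. These 3 genes lie within Cenpp on the opposite strand, which was at 0.571 to 2.32 CPM in all libraries. Prelp (chr1:133910304-133921414, minus strand) and Fmod (chr1:134037254-134048277, plus strand) are neighbors on chromosome 1, and Bgn (chrX:73483602-73495933) stands alone on the X chromosome. The sources used here do not say whether strand was used in counting. Prelp and Epyc overlap noncoding genes on the opposite strand, and reads of these could not be told apart from theirs without strand.

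RefSeq promoter windows of GRCm38.p6, from 250 bases before to 50 after the annotated start, were matched for 8 of the 10 genes and not for Dcn and Lum. Shown are the windows of Fmod (chr1:134037004-134037303, plus strand), Kera (chr10:97606955-97607254, plus strand) and the first start of Epyc (chr10:97643818-97644117, plus strand), the genes furthest below EDL in psoas, and of Aspn (chr13:49544193-49544492, plus strand), the one gene with a higher mean in soleus than in EDL. All are written 5′ to 3′, with E-boxes in capitals (CANNTG, the core motif of helix-loop-helix factors such as the tendon factor scleraxis).
Fmod: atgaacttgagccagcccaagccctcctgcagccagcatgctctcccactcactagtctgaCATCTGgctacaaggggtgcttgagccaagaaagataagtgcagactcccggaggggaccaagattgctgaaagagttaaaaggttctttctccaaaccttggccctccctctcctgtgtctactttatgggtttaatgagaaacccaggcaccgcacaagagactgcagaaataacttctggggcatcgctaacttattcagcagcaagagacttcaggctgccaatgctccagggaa
Kera: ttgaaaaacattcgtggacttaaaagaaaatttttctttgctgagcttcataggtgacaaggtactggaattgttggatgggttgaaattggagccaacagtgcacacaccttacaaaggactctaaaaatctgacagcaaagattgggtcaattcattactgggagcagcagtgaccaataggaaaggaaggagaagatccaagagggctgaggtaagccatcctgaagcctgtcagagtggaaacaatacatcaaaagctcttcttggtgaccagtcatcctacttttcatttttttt
Epyc: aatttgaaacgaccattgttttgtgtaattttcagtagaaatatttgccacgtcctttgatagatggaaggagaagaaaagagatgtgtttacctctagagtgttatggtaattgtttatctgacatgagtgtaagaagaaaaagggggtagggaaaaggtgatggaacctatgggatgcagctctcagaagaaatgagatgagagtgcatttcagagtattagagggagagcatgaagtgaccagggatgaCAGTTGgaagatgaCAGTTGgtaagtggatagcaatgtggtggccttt
Aspn: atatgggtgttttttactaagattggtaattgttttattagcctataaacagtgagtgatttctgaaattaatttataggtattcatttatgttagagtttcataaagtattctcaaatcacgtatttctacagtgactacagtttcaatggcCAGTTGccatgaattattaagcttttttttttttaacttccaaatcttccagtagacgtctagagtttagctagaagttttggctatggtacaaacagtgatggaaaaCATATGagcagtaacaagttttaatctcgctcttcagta
An E-box on either strand was present in the windows of 6 of the 8 genes (Bgn, Aspn, Fmod, Prelp, Epyc and Ogn), beside 72.3% of all 32851 windows of this length. Kera and Omd had none. The window of Kera begins within the gene position given above, so the bases before that position were not searched. The SMAD box (CAGAC) was present in Fmod and Prelp, beside 49.6% of all windows, and the TATA box (TATAAA) in Aspn and Ogn, beside 13.6%. A motif here is a match of letters only.

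EDL was the muscle richest in these transcripts. Summed over the 10 genes, EDL had 445 ± 98.2 FPKM (SD, n = 3), soleus 176 ± 29.8 (n = 4) and psoas 112 ± 26.4 (n = 3), and the 341 of the lowest EDL library was above the 217 of the highest soleus library. The mean was highest in EDL for 9 of the 10 genes, and Aspn was highest in soleus. Of the 9 genes detected in all muscles, 8 had their lowest mean in psoas, and Lum had it in soleus. Whole muscle cannot tell fewer cells that express a gene from less RNA per cell. In the paper, every EDL library had a higher RNA integrity number, a measure of RNA quality, than every psoas and soleus library. RNA quality and muscle are thus mixed, and the part of RNA quality in the results was not tested.

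On the FPKM scale, Dcn was the most abundant member in every muscle, with 178 ± 55.0 in EDL, 54.8 ± 17.2 in psoas and 60.3 ± 5.52 in soleus. In EDL, Kera (89.8 ± 14.6) and Ogn (79.8 ± 24.7) followed, and their ranges overlapped. Fmod (33.2 ± 7.46) and Lum (32.2 ± 8.31) came next with overlapping ranges, then Aspn (18.4 ± 6.68). Prelp (4.12 ± 1.38), Bgn (3.69 ± 0.846), Omd (3.01 ± 1.40) and Epyc (2.08 ± 0.796) were scarce, and neighbors in this order overlapped. In psoas the order was different, with Ogn (21.3 ± 5.23) and Lum (18.1 ± 3.96) after Dcn, and Kera at 3.29 ± 1.71 and Fmod at 1.96 ± 0.725. In soleus, Ogn (36.5 ± 7.62) and Aspn (26.8 ± 4.19) followed Dcn, and Kera (16.6 ± 12.0), Lum (16.0 ± 2.61) and Fmod (13.4 ± 9.35) could not be ranked beyond their spread.

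**Figure D1:**
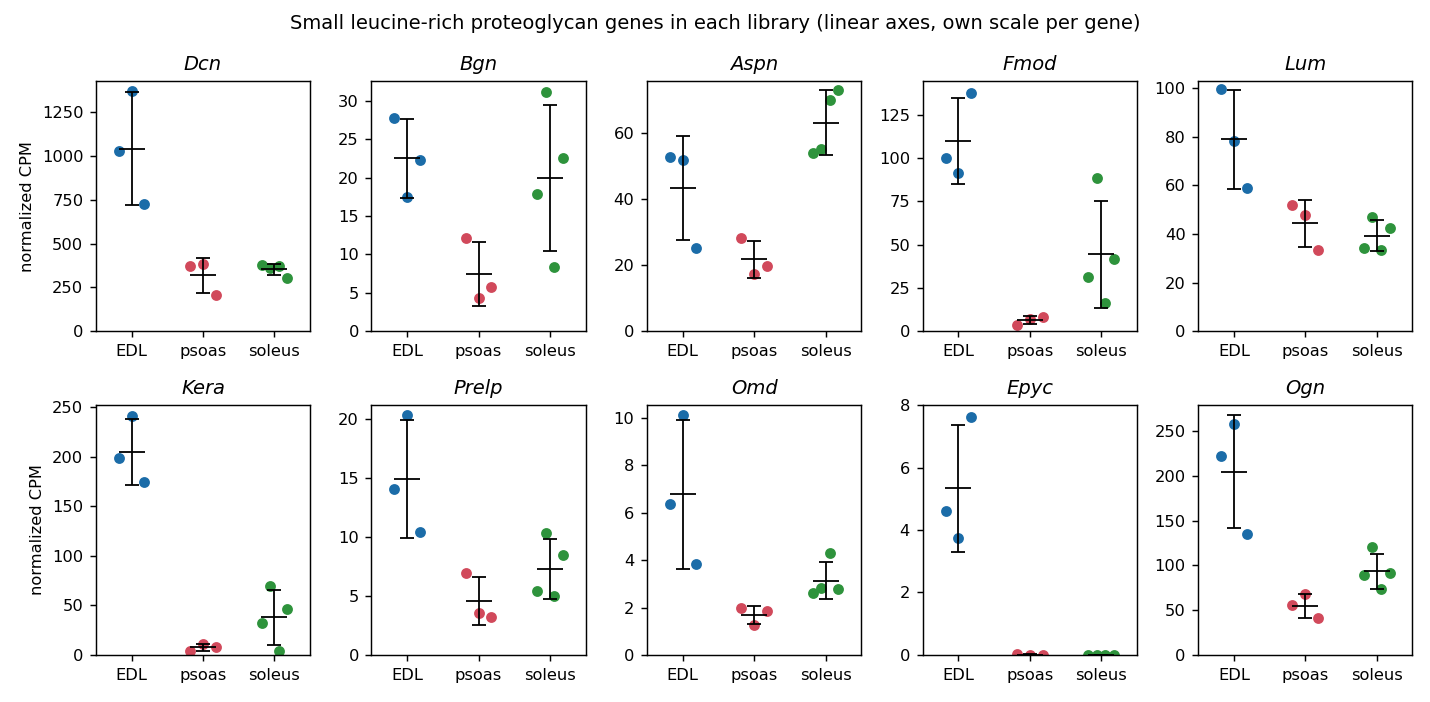
Normalized CPM (vertical axis, linear, with its own scale for each gene) of the 10 genes in 3 EDL, 3 psoas and 4 soleus libraries. Points are libraries in replicate order from left to right, and bars are the mean ± SD. EDL stands above both other muscles for Dcn and Kera, Aspn is highest in soleus, and Epyc is near 0 outside EDL.

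Psoas against EDL, the comparison of the pair of fast muscles, gave the largest changes. All 10 genes had a lower mean in psoas, and 6 of them fell (Dcn, Fmod, Kera, Omd, Epyc and Ogn), while 2.11% of all genes were called in this comparison and 1.57% were called lower in psoas. The libraries of the muscles did not overlap for 9 genes, beside 29.6% of all genes. The median log2 fold change of the members was -1.80, beside 0.00809 for all genes. At an adjusted p under 0.05 with the same fold, 8 of the 10 were lower, beside 7.65% of all genes. These counts include Epyc, which passed the authors' filter on low counts through the EDL libraries alone. Its call adds no support to them, and the median log2 fold change without Epyc was -1.70.

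Decorin (Dcn) binds collagen fibrils and sequesters transforming growth factor beta. It was at 1029, 1369 and 727 CPM in EDL 1, 2 and 3, and at 373, 383 and 204 CPM in psoas 1, 2 and 3. Every psoas library was below every EDL library. Dcn fell 3.25-fold (log2 fold change -1.70 ± 0.29 SE, edgeR quasi-likelihood test, adjusted p = 0.00654). Biglycan (Bgn), which also signals through Toll-like receptors, was at 17.5 to 27.8 CPM in EDL and 4.31 to 12.1 in psoas. Its groups did not overlap, but the difference of -1.58 ± 0.45 on the log2 scale was not called (edgeR adjusted p = 0.0461). Asporin (Aspn), a class I protein without a glycosaminoglycan chain, was at 52.8, 52.0 and 25.2 CPM in EDL 1, 2 and 3. In psoas it was at 28.1, 17.4 and 19.8 CPM, so that EDL 3 was below psoas 1 (log2 fold change -0.99 ± 0.28, edgeR adjusted p = 0.0458).

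Class II held the widest differences among genes seen in all muscles. Fibromodulin (Fmod), which guides collagen cross-linking in tendon, was at 100.04, 91.2 and 138 CPM in EDL 1, 2 and 3. It was at 3.77, 7.29 and 8.36 CPM in psoas 1, 2 and 3. The lowest EDL library was thus far above the highest psoas library, and Fmod fell 17.2-fold (log2 fold change -4.10 ± 0.56, edgeR adjusted p = 0.00276). Keratocan (Kera), known from the cornea and also made in tendon, was at 198, 241 and 175 CPM in EDL and at 3.54, 11.3 and 7.65 CPM in psoas. It fell 27.6-fold (log2 fold change -4.79 ± 0.81, edgeR adjusted p = 0.00642). Osteomodulin (Omd), a scarce member best known from bone, was at 6.38, 10.1 and 3.84 CPM in EDL and 1.98, 1.27 and 1.84 in psoas, and fell 3.98-fold (edgeR adjusted p = 0.00836). Its psoas values rest on only 75, 20 and 26 reads.

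Lumican (Lum), which competes with fibromodulin for binding to collagen, differed least. It was at 99.5, 78.4 and 58.8 CPM in EDL 1, 2 and 3 and at 52.0, 47.6 and 33.4 CPM in psoas 1, 2 and 3. The groups did not overlap, and the log2 fold change of -0.83 ± 0.23 was not called (edgeR adjusted p = 0.0430). Prelp, a class II protein that anchors basement membranes to collagen, was at 10.4 to 20.3 CPM in EDL and 3.19 to 6.91 in psoas, with a log2 fold change of -1.69 ± 0.37 that was not called (edgeR adjusted p = 0.0180).

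In class III, osteoglycin (Ogn), which limits fibril thickness, was at 222, 258 and 135 CPM in EDL 1, 2 and 3, and at 55.3, 67.7 and 40.9 CPM in psoas. No psoas library reached an EDL library, and Ogn fell 3.75-fold (log2 fold change -1.91 ± 0.28, edgeR adjusted p = 0.00356). Epiphycan (Epyc), a protein of growth plate cartilage, had 198, 199 and 139 reads in EDL 1, 2 and 3, or 4.62, 3.75 and 7.63 CPM. In psoas it had 1 read in psoas 1 and 0 in the others. The ratio of summed reads, scaled to library size, was 318 with an exact 95% interval of 56.9 to 12602 that covers counting error only, and Epyc was called (edgeR adjusted p = 0.000994). It met the deposited filter on low counts through the EDL libraries alone, the group where it was high. Its call in each fit below that left out a library is thus no sign of a firmer difference.

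How many members were called depended on single libraries, and all 10 stayed lower in psoas in each fit that left out a library. The share of all genes called moved as well, from 2.11% in the full fit to 0.571%, 0.379% and 0.540% without psoas 1, 2 and 3. It was 0.428%, 0.540% and 5.98% without EDL 1, 2 and 3. Without soleus 1, 2, 3 and 4 it was 1.20%, 1.74%, 2.82% and 1.08%. Without psoas 1, psoas 2 or psoas 3, Epyc was the 1 gene still called. Without EDL 1 or EDL 2, 2 genes were (Fmod and Epyc), without soleus 1 or soleus 4, 3 genes were (Fmod, Epyc and Ogn), and without soleus 2, 4 genes were (also Kera). Without EDL 3, 8 genes were called, with Aspn (log2 fold change -1.26, adjusted p = 0.00495) and Prelp (-1.89, adjusted p = 0.00928) in addition. Over these 10 fits, the log2 fold change stayed between -4.33 and -3.84 for Fmod, between -5.24 and -4.45 for Kera, between -1.91 and -1.46 for Dcn, between -2.13 and -1.71 for Ogn, and between -2.27 and -1.59 for Omd. Among the trimmed libraries alone (2 of EDL and 2 of psoas, all from males), 4 members were called (Fmod, Kera, Epyc and Ogn), beside 0.987% of all genes. Within them, the log2 fold change was -4.16 for Fmod, -4.95 for Kera, -1.98 for Ogn, -1.68 for Dcn and -2.31 for Omd. Among the untrimmed libraries, EDL 3 and psoas 3, both from females, gave -4.08 for Fmod, -4.55 for Kera, -1.75 for Ogn, -1.87 for Dcn and -1.10 for Omd. That fit holds 1 library each of EDL and psoas, with the spread taken from the 4 soleus libraries, so only these sizes are given.

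**Figure D2:**
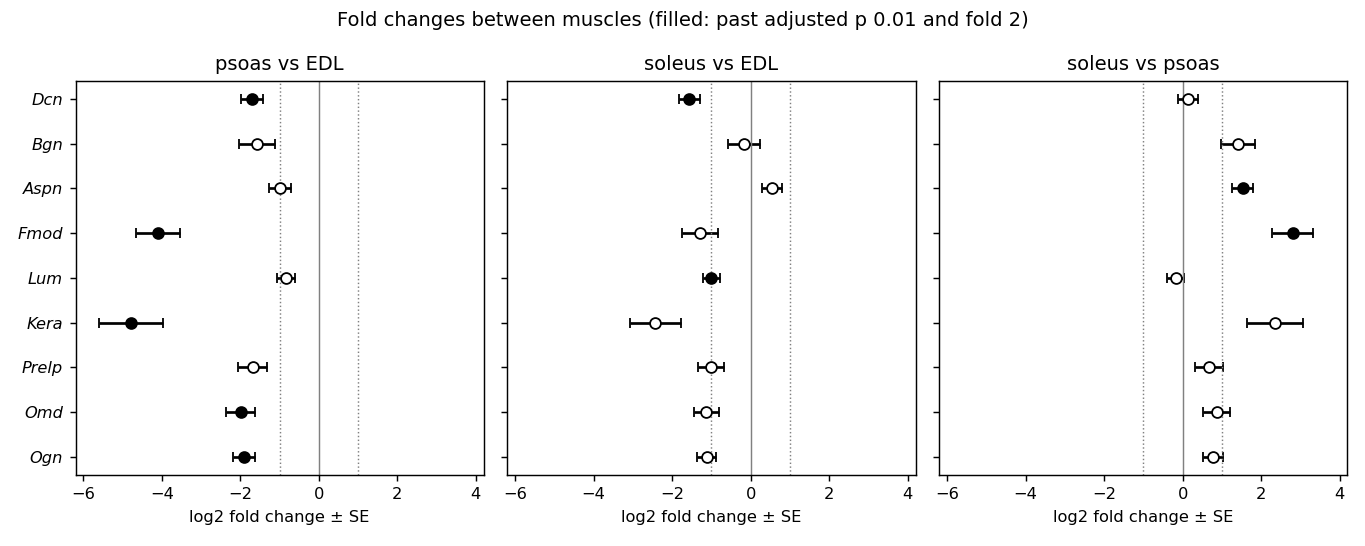
Log2 fold change ± SE (horizontal axis) of 9 genes in the 3 comparisons, from edgeR's fit over 10 libraries. Filled points passed both thresholds, dotted lines mark a fold of 2, and Epyc is left out because it is at or near 0 reads in psoas and soleus. Fmod and Kera lie furthest to the left in psoas against EDL, and Dcn and Lum lie near 0 in soleus against psoas.

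Soleus against EDL, the slow against the fast muscle of the lower leg, gave 3 lower members (Dcn, Lum and Epyc) and 0 higher ones. In this comparison 5.77% of all genes were called, 2.18% lower and 3.59% higher in soleus. At an adjusted p under 0.05, 6 members were lower, beside 11.5% of all genes. The groups did not overlap for 8 genes, beside 29.5% of all genes, and the median log2 fold change of the members was -1.13, beside -0.05 for all genes. These counts again include Epyc, which passed the filter on low counts through EDL alone, so its call adds no support to them.

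Dcn was at 376, 358, 370 and 305 CPM in soleus 1 to 4, all below the 727 CPM of EDL 3, the lowest EDL library. It fell 2.96-fold (log2 fold change -1.57 ± 0.26, edgeR adjusted p = 0.00269). Lum was at 34.3, 46.7, 33.6 and 42.3 CPM in soleus 1 to 4, all below EDL, and fell 2.01-fold (edgeR adjusted p = 0.00946), just past the fold threshold. Epyc had 0 reads in all 4 soleus libraries, so it was at least 22.3-fold lower in soleus than in EDL, against the floor of 3 counts in the shallowest soleus library (edgeR adjusted p = 0.000114).

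Kera was at 31.9, 69.5, 3.91 and 46.2 CPM in soleus 1 to 4. All 4 values were below EDL, but soleus 3 was at the level of psoas, and the log2 fold change of -2.43 ± 0.65 was not called (edgeR adjusted p = 0.0249). Fmod was at 31.4, 88.1, 16.5 and 41.6 CPM in soleus 1 to 4, where soleus 2 came close to the 91.2 CPM of EDL 2. Its log2 fold change was -1.30 ± 0.45 (edgeR adjusted p = 0.0652). Ogn was at 88.9, 121, 74.0 and 91.4 CPM and missed the threshold (log2 fold change -1.13 ± 0.25, edgeR adjusted p = 0.0117), without overlap with EDL.

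Prelp was at 5.02 to 10.3 CPM in soleus with a log2 fold change of -1.02 ± 0.34, and Omd at 2.60 to 4.31 CPM with -1.13 ± 0.32, neither of them called. Bgn was at 17.9, 31.2, 8.37 and 22.5 CPM in soleus 1 to 4, which overlapped EDL (log2 fold change -0.16 ± 0.41, edgeR adjusted p = 0.808). Aspn was the exception in direction. It was at 54.1, 55.2, 70.2 and 73.0 CPM in soleus 1 to 4, all just above the 52.8 CPM of EDL 1, and its log2 fold change of 0.54 ± 0.26 was not called (edgeR adjusted p = 0.168).

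Epyc, which is in the tables through EDL alone, was called in each of the 10 fits that left out a library. Dcn was not called without EDL 1, EDL 2 or soleus 4, where Epyc alone remained. Lum was called only in the full fit and without EDL 3, psoas 1 or psoas 3. Without EDL 3, 5 genes were called, with Omd (log2 fold change -1.40, adjusted p = 0.0062) and Ogn (-1.35, adjusted p = 0.00269) in addition. Fmod was called without soleus 2 (-1.87, adjusted p = 0.00985), and Kera without soleus 3 (-2.11, adjusted p = 0.0077). Over these fits, the log2 fold change of Dcn was between -1.77 and -1.32 and that of Lum between -1.18 and -0.86. All soleus libraries were untrimmed, and with trimming as a covariate 1 member was called (Epyc), beside 2.30% of all genes. Against EDL 3, the one untrimmed EDL library, the soleus libraries differed by -1.09 in Dcn, -0.63 in Lum, -2.25 in Kera, -1.68 in Fmod, -0.57 in Ogn and 1.28 in Aspn on the log2 scale. With 1 EDL library, only these sizes are given.

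Soleus against psoas gave 2 members that were higher in soleus (Aspn and Fmod) and 0 lower ones, while 5.69% of all genes were called, 2.99% higher and 2.71% lower in soleus. At an adjusted p under 0.05, 4 members were higher, beside 9.7% of all genes. Epyc was at or under the floor in both muscles, and no fold is given. Of the 9 other genes, 8 had a higher mean in soleus, 4 did not overlap (Aspn, Fmod, Omd and Ogn), beside 25.8% of all genes, and the median log2 fold change was 0.86, beside 0.02 for all genes.

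Aspn, at 54.1 to 73.0 CPM in soleus and 17.4 to 28.1 in psoas, rose 2.89-fold (log2 fold change 1.53 ± 0.27, edgeR adjusted p = 0.00371). Fmod, at 16.5 to 88.1 CPM in soleus and 3.77 to 8.36 in psoas, rose 6.98-fold (log2 fold change 2.80 ± 0.51, edgeR adjusted p = 0.00413). Kera had a log2 fold change of 2.36 ± 0.71 and Bgn of 1.42 ± 0.43, neither of them called (edgeR adjusted p = 0.0457 and 0.0489). The psoas range of Kera held soleus 3, and the psoas range of Bgn did too. Ogn (0.78 ± 0.26), Omd (0.86 ± 0.34) and Prelp (0.67 ± 0.35) were not called. Dcn (0.14 ± 0.26, edgeR adjusted p = 0.781) and Lum (-0.18 ± 0.22, edgeR adjusted p = 0.647) differed by less than their errors.

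Without psoas 2, neither Aspn nor Fmod was called by edgeR, and 5 members had an unadjusted p under 0.05, beside 28.4% of all genes in the fit over 10 libraries. Without psoas 3 or soleus 4, 1 gene was called (Fmod), and without psoas 1, 1 gene (Aspn). Without soleus 3, 3 genes were called, with Kera in addition (log2 fold change 2.70, adjusted p = 0.00255). The share of all genes called was 3.53%, 3.06% and 5.15% without psoas 1, 2 and 3. It was 4.92%, 3.78%, 4.88% and 3.74% without soleus 1, 2, 3 and 4, and 5.02%, 4.80% and 5.98% without EDL 1, 2 and 3. Against psoas 3 alone, the untrimmed psoas library, the soleus libraries differed by 1.66 in Aspn and 2.40 in Fmod on the log2 scale. With 1 psoas library, only these sizes are given.

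Soleus was compared with another muscle under the same animal code in 3 cases. In animal 659, soleus and psoas had 376 and 373 CPM of Dcn, 31.4 and 3.77 of Fmod, 31.9 and 3.54 of Kera, and 34.3 and 52.0 of Lum. In animal 765B they had 305 and 204 CPM of Dcn, 41.6 and 8.36 of Fmod, 46.2 and 7.65 of Kera, and 42.3 and 33.4 of Lum. Fmod and Kera were thus higher in soleus in both animals, and Lum was higher in psoas in one and in soleus in the other. In animal 765A, soleus and EDL had 358 and 727 CPM of Dcn, 88.1 and 138 of Fmod, 69.5 and 175 of Kera, and 55.2 and 25.2 of Aspn. These are single pairs and were not tested.

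The make-up of the family also differed, as the share of each gene in the summed counts per kilobase of the 10 genes. Such shares do not depend on library size. Dcn made up 39.6% ± 3.70 (SD, n = 3) in EDL, 48.2% ± 4.61 in psoas and 35.0% ± 7.19 in soleus. Kera made up 20.4% ± 1.82 in EDL, 3.07% ± 1.60 in psoas and 8.79% ± 5.57 in soleus, and EDL did not overlap either muscle. Fmod made up 7.99% ± 3.72, 1.91% ± 1.11 and 7.14% ± 3.75, where EDL and soleus overlapped and psoas stood below both.

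Lum took the opposite course, with 7.30% ± 1.49 in EDL, 16.2% ± 0.947 in psoas and 9.10% ± 0.581 in soleus, and psoas did not overlap either muscle. Aspn made up 4.05% ± 0.892 in EDL, 8.53% ± 2.42 in psoas and 15.6% ± 4.15 in soleus, with no overlap between any muscles. Ogn was the steadiest of the abundant members, with 17.7% ± 2.01, 19.1% ± 1.78 and 20.6% ± 0.890. The class II genes together made up 37.3% ± 5.30 in EDL, 23.1% ± 2.61 in psoas and 27.0% ± 8.89 in soleus.

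In exact two-sided permutation tests, the class II share differed by -14.2 percentage points between psoas and EDL (p = 0.1, the smallest that 3 libraries against 3 allow), by -10.3 between soleus and EDL (p = 0.171) and by 3.91 between soleus and psoas (p = 0.571). Over the 39 exact permutation tests of shares and of the ratios Bgn/Dcn, Fmod/Lum and Kera/Lum, the smallest adjusted p was 0.244, so no share of a single gene and no ratio passed. The class II tests are outside this adjustment and have no adjusted p. Exact tests of 4 libraries against 3 cannot go below p = 0.0571. The Fmod/Lum ratio was 0.05 ± 0.65 (log2, SD) in EDL, -3.26 ± 0.90 in psoas and -0.50 ± 0.79 in soleus.

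**Figure D3:**
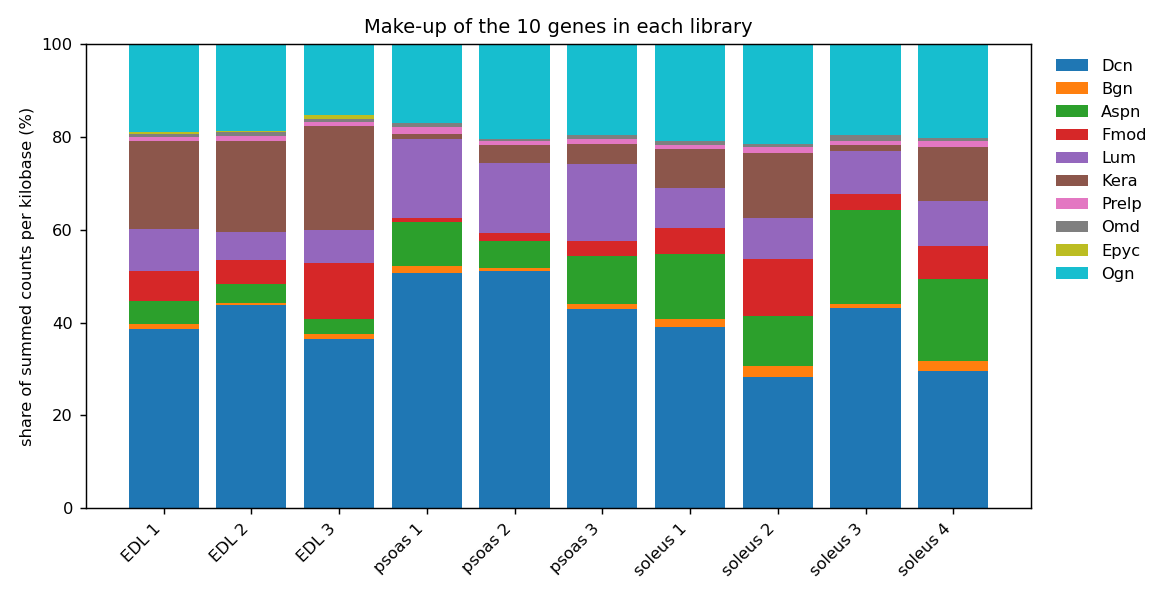
Share of each of the 10 genes in their summed counts per kilobase (vertical axis, percent) in each library. Kera shrinks from 20.4% on average in EDL to 3.07% in psoas, Lum widens to 16.2% in psoas, and Aspn is widest in soleus.

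Markers of tendon cells and fibroblasts also differed between the muscles. The 11 tendon markers, which include the tendon factors Scx and Mkx and the tendon membrane protein Tnmd, were all called lower in psoas than in EDL (11 of 11, median log2 fold change -4.84). The paper listed Tnmd, Cilp2, Tnc, Wif1, Col11a1 and Col11a2, and also Kera, among the top genes of its second principal component. EDL and psoas lay apart on that axis in these same libraries, so the calls of these markers are no independent support. Against EDL, 0 of 11 were called in soleus, with a median of -1.15 and all 11 below 0, and 7 of 11 were called higher in soleus than in psoas. Their summed level was 656 to 722 CPM in EDL, 35.3 to 76.8 in psoas and 156 to 527 in soleus. No marker was at 0 in a whole muscle, and psoas still held 1.16 to 1.84 CPM of Scx, 0.396 to 1.39 of Mkx and 1.42 to 5.96 of Tnmd. The part of tendon tissue in the results was not tested.

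Within soleus, several members ranked the libraries as the tendon markers did. The tendon sum was 527 CPM in soleus 2, 297 in soleus 4, 277 in soleus 1 and 156 in soleus 3. The same order of the 4 libraries was seen in 6 of the 9 detected genes (Bgn, Fmod, Lum, Kera, Prelp and Ogn) and not in Dcn, Aspn and Omd. It was not particular to tendon markers, since the summed collagen partners (1484, 1097, 1039 and 288 CPM in soleus 2, 4, 1 and 3) and the cartilage and bone markers (7.03, 4.64, 3.08 and 1.91 CPM) had the same order. Total counts also had this order, at 26848423, 15795096, 15493693 and 12737971 in soleus 2, 4, 1 and 3. Soleus 3 came from the youngest mouse (32 days). The part of depth and age in this order was not tested. The genes share their libraries, and these orders are a description.

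The 11 muscle fibroblast markers followed another pattern. One (Pi16) was called lower in psoas than in EDL, and 2 (Pdgfra and Smoc2) were called lower in soleus than in EDL, with 0 called between soleus and psoas. The median log2 fold changes of the 11 markers were -0.78, -0.67 and -0.04 in these comparisons, with 8, 10 and 6 of 11 below 0. The summed level was 343 to 478 CPM in EDL, 220 to 312 in psoas and 180 to 238 in soleus. EDL was thus apart from both muscles, and psoas and soleus overlapped. The same held for Dcn, Lum, Kera and Prelp among the genes detected in all muscles. How many of all genes have this pattern was not counted, so it is not particular to these members. EDL did not overlap psoas in 29.6% of all genes and did not overlap soleus in 29.5%. Pdgfra was at 57.9 ± 17.1 CPM in EDL, 28.9 ± 3.44 in psoas and 27.4 ± 1.85 in soleus. The part of fibroblast number in the results was not tested. The 6 macrophage markers also had lower values outside EDL, with 6 of 6 below 0 and a median log2 fold change of -1.30 in psoas and 6 of 6 and -0.86 in soleus, and 1 called lower in each. Their summed level was 61.7 to 138 CPM in EDL, 28.0 to 52.7 in psoas and 48.2 to 71.3 in soleus, and their part in the results was not tested.

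**Figure D4:**
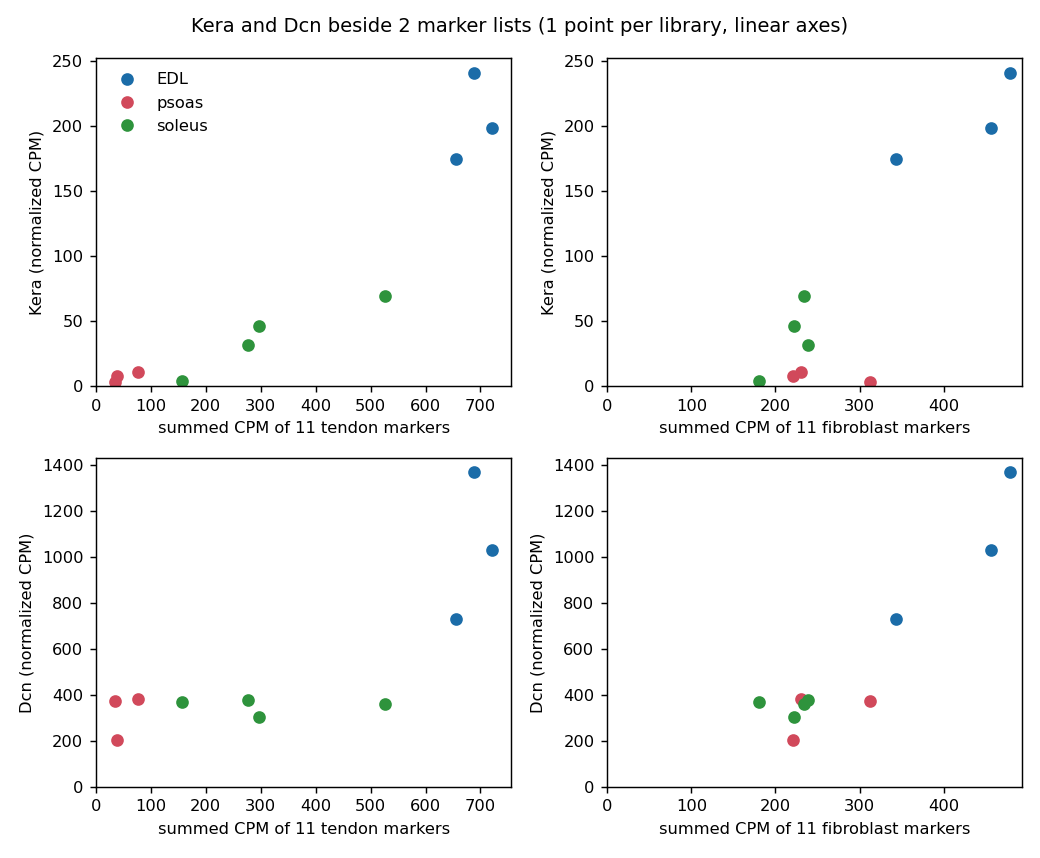
Normalized CPM of Kera (top) and Dcn (bottom) against the summed CPM of 11 tendon markers (left) and 11 muscle fibroblast markers (right), with 1 point per library. Among the soleus libraries Kera is lowest at the tendon sum of 156 CPM and highest at 527, while Dcn stays between 305 and 376 CPM.

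EDL 3 was the lowest EDL library in 7 of the 10 genes (Dcn, Aspn, Lum, Kera, Prelp, Omd and Ogn). It was the highest in Fmod and Epyc and the middle one in Bgn. It was also the shallowest, the one untrimmed and the one female EDL library, and had the lowest fibroblast sum in EDL (343 CPM). Among the soleus libraries, soleus 3 was lowest in the 6 genes named with the tendon order, and it was also the shallowest and from the youngest mouse. No soleus value passed the test for outlying samples (Dixon's ratio, 22 measures).

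Cartilage and bone markers were scarce. Of 12 listed, 7 were in the files, with summed levels of 8.89 to 16.6 CPM in EDL, 2.12 to 3.75 in psoas and 1.91 to 7.03 in soleus. Epyc was seen only in EDL above the floor, and among these markers Col9a1, a cartilage collagen, was at 3.67 CPM in EDL, 1.26 in psoas and 0.0303 in soleus, where it was called lower than in both other muscles. Matn3, another cartilage matrix gene, was called lower in psoas than in EDL (5.52 against 0.0923 CPM). The list did not move as one, with 5 of 7 markers below 0 in soleus against EDL. Sox9, a transcription factor of cartilage, was at 0.334 CPM in EDL, 0.643 in psoas and 1.35 in soleus, without a call.

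Other leucine-rich repeat matrix genes were measured for 4 of the 8 listed. Chad, which encodes chondroadherin, fell from 9.67 ± 0.757 CPM in EDL to 0.401 ± 0.318 in psoas (edgeR adjusted p = 0.00144) and rose to 4.46 ± 2.40 in soleus against psoas (adjusted p = 0.00143). Ecm2, the neighbor of Aspn, fell from 44.5 ± 16.5 CPM in EDL to 11.4 ± 0.413 in psoas (adjusted p = 0.00232). Tsku and Podn were not called in any comparison. On the other side of the chromosome 13 cluster, Nol8 was at 16.8 CPM in EDL, 15.7 in psoas and 23.2 in soleus and was not called.

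The collagens that these proteins bind had lower means in psoas than in EDL for all 11 genes of the list, with 2 called. Col12a1, a fibril-associated collagen of tendon, went from 94.2 to 5.86 CPM and Col14a1, another fibril-associated collagen, from 34.8 to 8.94. Col1a1 went from 372 to 23.9 CPM and Col1a2 from 536 to 41.7, and neither was called (edgeR adjusted p = 0.0162 and 0.0117). In soleus against EDL 0 of 11 were called, and against psoas 1 was higher (Col12a1, 37.3 CPM). The summed collagen level was 1795 to 3845 CPM in EDL, 430.0 to 793 in psoas and 288 to 1484 in soleus.

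Of 24 enzymes measured that build the glycosaminoglycan chains, 20 had a lower log2 value in psoas than in EDL and 1 was called lower in psoas than in EDL. It was Dse, the epimerase that turns chondroitin into dermatan sulfate, at 20.2 CPM in EDL, 5.58 in psoas and 10.3 in soleus (log2 fold change -1.85 ± 0.18, edgeR adjusted p = 0.000675). None was called between soleus and EDL, with Dse at an adjusted p of 0.0024 and a log2 fold change of -0.97. Chst3, a chondroitin sulfotransferase, was the 1 gene called higher in soleus than in psoas (1.20 against 0.276 CPM). Fam20b, which phosphorylates the linker sugar of the chains, was at 37.4, 44.8 and 62.8 CPM in EDL, psoas and soleus and was not called.

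Of the 17 ligands, receptors and processing enzymes of the family, 2 were called lower in psoas than in EDL. These were Tlr4, a receptor for biglycan and decorin (16.5 against 5.68 CPM), and Ccn4, a matricellular protein that binds decorin and biglycan (15.6 against 0.703 CPM). Between soleus and EDL, Tgfb3 was called higher in soleus (18.2 against 7.56 CPM) and Mstn, which encodes the decorin ligand myostatin, lower (2.34 against 59.8 CPM). Between soleus and psoas, 4 were called higher and 1 lower. Tlr4 (24.5 against 5.68 CPM), Tgfbr2 (59.1 against 29.0) and Tgfb3 (18.2 against 8.78) were among the higher ones, and Mstn (2.34 against 92.4) was the lower one.

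By Pearson correlation of log2 normalized CPM over the 10 libraries, the genes most like the mean of the members among 13317 genes were Lhfp (r = 0.988), Tuba1a (0.982), Fkbp7 (0.981) and Nucb2 (0.980). That mean includes Epyc, which reached 1 CPM in EDL libraries alone and so adds to the weight of EDL in it. Lhfp was at 21.1 ± 2.87 CPM in EDL, 7.02 ± 1.25 in psoas and 11.9 ± 2.93 in soleus. The gene closest to a single member was Cpxm2 for Fmod (r = 0.995), Wif1, itself a tendon marker, for Kera (0.985), Colec12 for Ogn (0.982), Cd302 for Dcn (0.974) and Prg4, which encodes the joint lubricant lubricin, for Omd (0.964). Cpxm2 was at 59.8 ± 6.82 CPM in EDL, 4.16 ± 1.49 in psoas and 30.8 ± 18.5 in soleus. Between the 9 members other than Epyc, which is at or near 0 in 7 of the 10 libraries, r ranged from 0.0463 (Aspn and Lum) to 0.929 (Fmod and Kera), and that of Dcn was 0.912 with Ogn and 0.205 with Aspn. These values describe 10 libraries that fall into 3 muscles, and libraries of a muscle share its level.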

How the data were processed

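RNA of 3 EDL, 3 psoas and 4 soleus samples was sequenced with a stranded total RNA kit after ribosomal RNA removal. For 4 libraries the authors first trimmed low-quality bases with Trimmomatic 0.32. They aligned read pairs with TopHat2 2.1.1 to GRCm38.p4, took reads per gene with GenomicFeatures and GenomicAlignments, and removed genes without at least 10 reads in at least 3 samples. The authors deposited raw counts per gene, without normalization, 1 table per library. All 16112 genes met this filter in the tables. The labels hold 7 animal codes, more than the number of mice in the methods. The handling of reads with several alignments and the strand setting are not given in the sources used here, and the sequencing run of each library is not known.

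The test was edgeR's (version 4.0.16, in R 4.3.3), as 1 quasi-likelihood fit over 10 libraries with TMM and no covariate. DESeq2 1.42.0 and limma 3.58.1 were also used. Python 3.11.15 served for tables and plots, with pandas 2.3.3, numpy 2.4.6, scipy 1.17.1 and matplotlib 3.10.9. The study used DESeq2, which is an alternative here. FPKM values and shares use summed exon lengths of GENCODE M21, and promoters are those of RefSeq. Scripts were tested on simulated data. The 10 members, the gene lists and the tests were chosen with earlier results of these data known. Named genes are the members, their neighbors on the chromosome, at most 4 genes of each list by smallest adjusted p with the 2 most abundant, the genes most correlated with the members, and Myh4 and Myh7. Scx and Mkx were named after their values were seen. Adipocyte, endothelial, macrophage and Schwann cell markers were counted as well. Correlations used genes with at least 1 CPM in at least 3 libraries and a pseudocount of 0.5 CPM. Same-numbered EDL and psoas libraries did not deviate together in every pair (r = 0.238, 0.0197 and 0.536), so the replicate number was not used as a pairing. Alternatives were other tests, normalizations, filters, thresholds and covariates, and fits without each library.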

Additional observations from a re-analysis of the deposited data

How the results depend on the processing

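Single members changed direction under an alternative in 7 cases, none of them a called difference. Bgn between soleus and EDL turned to 0.0094 with trimming as a covariate, to 0.0279 with sex as a covariate and to 0.0326 without soleus 3 (-0.46 to 0.0326 leaving out each library). Lum between soleus and psoas turned to 0.24 with trimming as a covariate, to 0.000598 with sex as a covariate and to 0.22 in the untrimmed libraries, and Dcn between soleus and psoas turned to -0.10 without psoas 3 (-0.10 to 0.29 leaving out each library). Of the other fits of single genes, 600 kept direction and side of the threshold, 90 lost the call and 19 gained it.

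Leaving out 1 library in turn, 1 to 8 members were called for psoas against EDL, 1 to 5 for soleus against EDL and 0 to 3 for soleus against psoas. The libraries and the shares of all genes called are given with each comparison above. A test against a fold of 2 (edgeR glmTreat) called 1, 1 and 0 members, beside 0.168%, 1.15% and 1.09% of all genes. It had 3 members at an unadjusted p under 0.05 for soleus against psoas. DESeq2 called 8, 4 and 3 members, beside 6.80%, 9.43% and 8.58% of all genes. Fits of only the muscles compared called 3, 2 and 1 members, beside 0.95%, 5.44% and 4.52% of all genes. At an adjusted p under 0.05, 6 members were called for soleus against EDL and 4 for soleus against psoas, beside 11.5% and 9.70% of all genes. With trimming as a covariate, 1 was called between soleus and EDL, beside 2.30% of all genes. Untrimmed libraries alone hold 1 EDL and 1 psoas library, assumed to vary like soleus, so only the sizes given above are reported for them. The cause of these differences was not tested.

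With the replicate number as a block, 3 members were called for psoas against EDL, 3 for soleus against EDL and 0 for soleus against psoas by edgeR. These stood beside 0.906%, 3.64% and 3.35% of all genes. In the last, 5 members had an unadjusted p under 0.05. In a block of EDL and psoas alone, 6 members were called by edgeR, beside 1.81% of all genes, with Bgn in (-1.72, adjusted p = 0.00771) and Omd out (adjusted p = 0.0255). The block gave exact permutation p = 0.25 for the class II share of psoas against EDL, the smallest that 3 pairs allow, 0.5 for soleus against EDL and 0.75 for soleus against psoas. With upper-quartile normalization, the median over all genes in soleus against EDL was -0.14 (log2) instead of -0.05. Low counts limit Omd and Epyc most, at 20 and 0 reads in single psoas libraries.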

Other observations

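Markers of 3 other cell types had no called member. Of 7 endothelial markers 0 were called by edgeR in the 3 comparisons, with sums of 133 to 228, 125 to 138 and 156 to 183 CPM. Of 6 adipocyte markers 0 were called, with sums of 8.73 to 25.8 CPM in EDL, 9.56 to 49.2 in psoas and 32.0 to 145 in soleus, and of 5 Schwann cell markers 0 were called, with 13.7 to 21.5, 8.24 to 56.7 and 10.9 to 24.8 CPM.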
